A study of Homo sapiens with 2 samples.

Results

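ERBB2, ERBB3, FGFR4 and IGF1R encode receptor tyrosine kinases of the ERBB, fibroblast growth factor and insulin-like growth factor families, and their 4 rows were taken by gene symbol from a count matrix of 16251 genes. The cells were MDA-MB-453, an established line from a human breast carcinoma that the labels call triple-negative, with 3163 cytokine-treated and 2822 vehicle cells in the matrix. The treated culture received IL1β and TNFα at 10 ng/ml and the other culture water, both for 24 hours, and 1 library was made from each with a 10x Genomics 3′ kit. Since each culture gave a single library, differences could not be checked against replicates and were not tested. Levels are UMIs (unique molecular identifiers, which count captured molecules) counted per 1e+06 UMIs of the library (CPM) and not divided by transcript length. Intervals are exact at the 95% level and reflect counting error alone.

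Receptor tyrosine kinases bind a ligand outside the cell, pair up, phosphorylate each other and start the RAS to MAPK and PI3K to AKT cascades that drive growth and survival. ERBB2 has no known ligand of its own and acts as the preferred partner of other ERBB receptors, while ERBB3 binds neuregulins, has a very weak kinase and passes the signal to PI3K. FGFR4 is the FGF receptor of liver and of some luminal tumors, and IGF1R binds IGF1 and IGF2 and signals through the docking protein IRS1.

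The 4 genes lie on 4 chromosomes, all on the plus strand of GRCh38. ERBB2 (ENSG00000141736) spans positions 39687914 to 39730426 of chromosome 17, ERBB3 (ENSG00000065361) positions 56076799 to 56103505 of chromosome 12, FGFR4 (ENSG00000160867) positions 177086905 to 177098144 of chromosome 5 and IGF1R (ENSG00000140443) positions 98648539 to 98964530 of chromosome 15. MIEN1 on the opposite strand overlaps 1931 bases of ERBB2 at its 3′ end, where reads of a 3′ kit fall, and PGAP3 overlaps 8884 bases at the other end. A same-strand locus, ENSG00000257411, overlaps 2175 bases of ERBB3. Whether counting used the strand is not given in the sources used here, so part of the reads over these stretches is of uncertain origin.

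The DNA before the start sites of FGFR4 and ERBB2 is shown because these are the most abundant of the 4 transcripts and because FGFR4 varied from cell to cell with the transcription factor XBP1. Capitals mark letters that match the binding motif of NF-κB (by its usual decamer), of AP-2 (GCCNNNGGC) or the core ACGTG that XBP1 can bind, searched on both strands. The FGFR4 sequences are RefSeq promoters of GRCh38.p14, at chr5:177086665-177086904 before the first exon and at chr5:177089300-177089549 before a downstream start, within the first intron of the main transcript. The ERBB2 stretch is chr17:39699814-39699843 of GRCh38, upstream of the main start at 39700064. All 3 are on the plus strand.
FGFR4 first start: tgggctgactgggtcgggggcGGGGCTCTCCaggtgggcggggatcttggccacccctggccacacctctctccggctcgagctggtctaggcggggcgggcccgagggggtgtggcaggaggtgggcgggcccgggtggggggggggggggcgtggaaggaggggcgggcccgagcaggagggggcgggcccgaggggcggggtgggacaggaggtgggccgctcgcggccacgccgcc
FGFR4 downstream start: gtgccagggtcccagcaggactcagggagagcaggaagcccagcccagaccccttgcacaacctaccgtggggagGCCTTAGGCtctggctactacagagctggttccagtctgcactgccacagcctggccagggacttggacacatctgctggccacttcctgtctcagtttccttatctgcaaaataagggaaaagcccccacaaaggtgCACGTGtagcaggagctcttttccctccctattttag
ERBB2 main start: GGGATTCTCCgaggaaaagtgtgagaacgg

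In the 250 bases before each start, the NF-κB decamer began 250 bases before the main start of ERBB2 and 229 bases before the first start of FGFR4. The downstream FGFR4 start had an AP-2 match 175 bases away and the XBP1 core on both strands within a CACGTG, 36 and 37 bases away, and this start, at 177089550, is also the first base of the second exon of the main transcript. IGF1R had 1 AP-2 match and 1 XBP1 core match, and the FOXO motif GTAAACA was in none of the windows. Among 35116 RefSeq promoters, the 250 upstream bases held the NF-κB decamer in 9.96%, the AP-2 motif in 19.8%, the XBP1 core in 18.5% and the FOXO motif in 2.98%. The RefSeq promoter of ERBB2, before an upstream start (chr17:39687844-39688093), held none of the 4 motifs, and the window of the main start, which is not a RefSeq promoter, held no AP-2, FOXO or XBP1 core match. A match describes letters only. RefSeq promoters were found for 3 of the 4 genes, and ERBB3 was not among them.

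The cytokine-treated library summed to 69592446 UMIs and the vehicle library to 58587996 UMIs, with medians of 21508 and 20249 UMIs per cell. In all, 9192 genes reached 5 CPM in a library and were counted as measured, and their median log2 ratio (cytokine-treated over vehicle) was -0.20, with quartiles of -0.50 and 0.14. Cells called G1 made up 88.5% of the cytokine-treated and 36.6% of the vehicle cells, which touches every comparison below. Luminal epithelial markers were high, with KRT8 at 1069.6 and 329.9 CPM in the cytokine-treated and vehicle libraries. All 12 luminal markers were measured, their sum was 8196 and 3598 CPM, and 6 were at least 2-fold higher in the treated library. The 4 basal markers with a row summed to 6.49 and 2.37 CPM, the single immune marker (LYZ) had 4 and 5 UMIs, and of 2 fibroblast and endothelial markers COL1A1 was at 20.1 and 20.9 CPM while PECAM1 had 11 UMIs in treated and 0 in vehicle cells. The part of the luminal markers in the receptors' values was not tested, and values within each phase are given below.

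Of the 4 receptors, ERBB2 was higher in the cytokine-treated library, ERBB3 and IGF1R were lower, FGFR4 lay near the median gene, and no difference reached 2-fold. ERBB2 was at 208 CPM (interval 204 to 211; 14464 UMIs) in cytokine-treated cells and at 129 CPM (126 to 132; 7564 UMIs) in vehicle cells, 1.61-fold higher, a log2 ratio of 0.69 (0.65 to 0.73). ERBB3 was at 67.2 CPM (65.3 to 69.2) in treated and 85.7 CPM (83.3 to 88.1) in vehicle cells, a log2 ratio of -0.35 (-0.41 to -0.29). The ratio of ERBB2 to ERBB3 UMIs was 3.09 in treated and 1.51 in vehicle cells.

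FGFR4 was the most abundant of the 4, at 351 CPM (346 to 355; 24417 UMIs) in cytokine-treated and 395 CPM (389.8 to 400.0; 23134 UMIs) in vehicle cells. Its log2 ratio of -0.17 (-0.20 to -0.14) lay close to the median gene, and its sign turned when the libraries were scaled by TMM (0.0065) or by the median of ratios (0.022), so no direction is given for it. IGF1R was close to the detection range, with 221 UMIs in treated and 304 UMIs in vehicle cells (3.18 and 5.19 CPM), 1.63-fold lower, a log2 ratio of -0.71 (-0.96 to -0.45). It passed the limit of 5 CPM in the vehicle library alone.

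**Figure D1:**
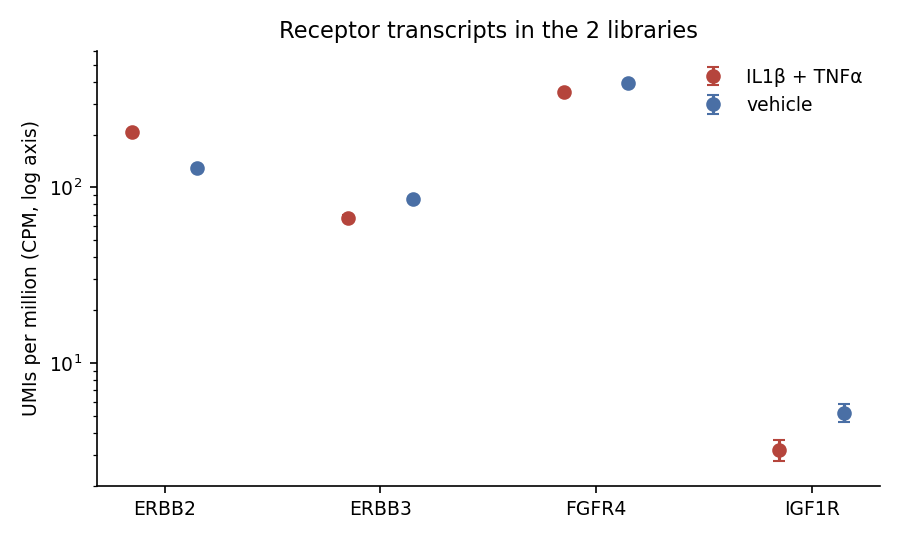
Level of the 4 receptors in the cytokine-treated (red, left of each pair) and vehicle (blue) libraries, as CPM on a logarithmic axis, with Poisson intervals (95%) as bars. ERBB2 stands at 208 and 129 CPM and IGF1R at 3.18 and 5.19 CPM in the treated and vehicle libraries.

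A gene was counted past a fold limit when its ratio reached it and its interval lay on the same side of 0. None of the 4 receptors was at least 2-fold higher or at least 2-fold lower, where 4.29% and 7.48% of measured genes were. These 2 shares are also the background for every count past 2-fold in the gene lists. At 1.5-fold, ERBB2 was the 1 receptor higher against 9.01% of measured genes, and IGF1R the 1 receptor lower against 19.9%. Of all measured genes, 663 (7.21%) had a log2 ratio at or above that of ERBB2, whereas 14.5% lay at or below IGF1R and 36.3% at or below ERBB3. Relative to the median gene, the log2 ratios were 0.88 for ERBB2, -0.15 for ERBB3, 0.03 for FGFR4 and -0.51 for IGF1R. In a bulk sum, fewer cells with a transcript and less RNA per cell cannot be told apart. The shares of cells below do not separate them either, since at so few UMIs per cell a share follows the mean count.

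Among receptor tyrosine kinases these genes dominated the cells. A 3′ kit counts molecules and not bases, so UMIs of different genes were ranked without division by length, although capture can differ between transcripts. Of 36 receptor tyrosine kinases with a row, FGFR4 ranked 1 and ERBB2 ranked 2 in both libraries, and ERBB3 ranked 4 in treated and 3 in vehicle cells. The collagen receptor DDR1, at 71.6 CPM in treated and 37.5 CPM in vehicle cells, stood above ERBB3 in the treated library. FGFR4 alone held 42.1% of receptor tyrosine kinase UMIs in treated and 48.0% in vehicle cells, and ERBB2 held 24.9% and 15.7%. The 4 genes together held 75.4% and 74.8%, so the sum of the group hardly differed while its makeup did. IGF1R ranked 17 and 15, next to its relative INSR at 3.87 and 3.64 CPM in treated and vehicle cells.

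Most of their relatives were scarce, although IGF2R, which clears IGF2 and is no kinase, was above IGF1R at 14.0 CPM in treated and 12.8 CPM in vehicle cells. EGFR, the ERBB receptor of EGF, had 2 UMIs in treated and 6 UMIs in vehicle cells, and ERBB4 had 13 and 32 UMIs. FGFR1 was at 4.54 and 6.79 CPM, FGFR2 had 21 and 82 UMIs, FGFR3 had 5 and 22 UMIs, and KLB, the co-receptor that FGFR4 needs for FGF19, was at 3.35 and 3.23 CPM. Of the other measured receptor tyrosine kinases, LMTK3 was 2.51-fold higher, and EPHB3, an ephrin receptor, and TYRO3, a receptor of phosphatidylserine-binding ligands, were 2.52-fold and 2.84-fold lower. In the whole family, the 4 receptors included, 1 of 15 measured genes was at least 2-fold higher and 2 were at least 2-fold lower, with a median log2 ratio of -0.55 against -0.20 over all measured genes.

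Ligands made by the cells themselves were low. AREG, an EGFR ligand, was the 1 measured ERBB ligand, at 5.82 CPM in treated and 7.37 CPM in vehicle cells. NRG2 and NRG3, which are neuregulins, had 149 and 131 UMIs and 41 and 99 UMIs in treated and vehicle cells. The 1 measured gene of the FGF list was FGF13, which belongs to the group that stays in the cell and does not act on FGF receptors. It was at 4.04 and 9.61 CPM, 2.38-fold lower, and reached 5 CPM in the vehicle library alone. Of the processing enzymes, ADAM17, the main sheddase of ERBB ligands, was at 14.6 and 12.7 CPM and ADAM10 at 33.9 and 40.1 CPM. BACE2, a membrane protease in the same list of 8 measured genes, was 21.2-fold higher (7.23 against 0.341 CPM), the 1 gene of that list past 2-fold. It had 503 UMIs in treated and 20 in vehicle cells and counted as measured through the treated library alone.

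IRS1, IGFBP5 and IGFBP2 of the IGF arm were at least 2-fold lower in the treated library. IRS1, the docking protein of IGF1R and the insulin receptor, was at 7.17 CPM (499 UMIs) in treated and 22.4 CPM (1310 UMIs) in vehicle cells, 3.12-fold lower (log2 ratio -1.64, -1.79 to -1.49). IGFBP5, which binds IGFs outside the cell, was at 84.8 CPM in treated and 359.8 CPM in vehicle cells, 4.24-fold lower (log2 ratio -2.09, -2.13 to -2.04). IGFBP2 had 1390 UMIs in treated and 2630 in vehicle cells, 2.25-fold lower by CPM, and IGFBP3 was at 109 and 139 CPM. All 3 measured genes of the list of IGF ligands and binding proteins had negative ratios and 2 were at least 2-fold lower, with a median of -1.17. Over all 9192 measured genes 6106 ratios were negative. Both IRS1 and IGFBP5 were lower in every phase, and IRS1 had log2 ratios of -1.69 in G1, -1.62 in S and -2.00 in G2/M cells. In G1 cells IGFBP5 was at 89.6 CPM in treated and 460.5 CPM in vehicle cells.

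Few measured genes of the downstream cascades passed 2-fold. Of 13 measured adaptors, IRS1 was the 1 gene past 2-fold, and GRB2, the adaptor that brings SOS to active receptors, was at 175 and 192 CPM in treated and vehicle cells. None of 14 measured PI3K and AKT pathway genes and none of 13 RAS and MAPK genes passed 2-fold, with medians of -0.27 and -0.25. The exception in sign among the PI3K and AKT genes was PIK3R3, a regulatory subunit of PI3K, at 74.1 and 43.0 CPM (log2 ratio 0.79). AKT1 was at 88.3 and 129 CPM (-0.54) and AKT2 at 22.4 and 35.0 CPM (-0.65). HRAS was at 179.6 and 295 CPM (log2 ratio -0.72). These values are transcript levels and say nothing of phosphorylation.

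Transcripts known to follow pathway activity had ratios of both signs. Of 22 measured feedback inhibitors and turnover genes, 1 was at least 2-fold lower, SPRED1, a RAS inhibitor, at 10.8 CPM in treated and 24.3 CPM in vehicle cells. DUSP4 and DUSP6, phosphatases that switch off MAPKs, were at 83.2 and 48.3 CPM and at 42.9 and 44.1 CPM. ERRFI1, an inhibitor of ERBB kinases, was at 30.4 and 31.7 CPM, and RNF41, a ligase that sends ERBB3 to degradation, at 14.8 and 17.1 CPM. Of 12 measured MAPK output genes, IER3 was 2.56-fold higher (325 and 127 CPM) and SPRED1 the 1 gene at least 2-fold lower. That list had 4 positive and 8 negative ratios and a median of -0.28, against -0.20 over all measured genes. Its most abundant genes differed in sign, with CCND1 at 744 and 601 CPM (log2 ratio 0.31) and FOS at 239 and 398 CPM (-0.73). The ETS factors ETV4 and ETV5, which follow FGF and MAPK signals in many tissues, stayed under 5 CPM, with 5 and 83 UMIs for ETV4 and 47 and 233 UMIs for ETV5 in treated and vehicle cells.

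Of 13 measured genes known to follow FOXO factors, CCNG2, an unconventional cyclin, was the 1 past 2-fold, 3.01-fold higher (45.9 and 15.3 CPM), and KLF6 was at 194 and 106 CPM. ERBB3 and IGF1R are themselves in that list, since FOXO factors raise both in other breast cancer cells, and both had negative ratios. FOXO3 was at 28.4 and 19.7 CPM. The list median was 0.07, with 7 positive and 6 negative ratios. Over all measured genes the median was -0.20, with 3086 positive and 6106 negative ratios.

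**Figure D2:**
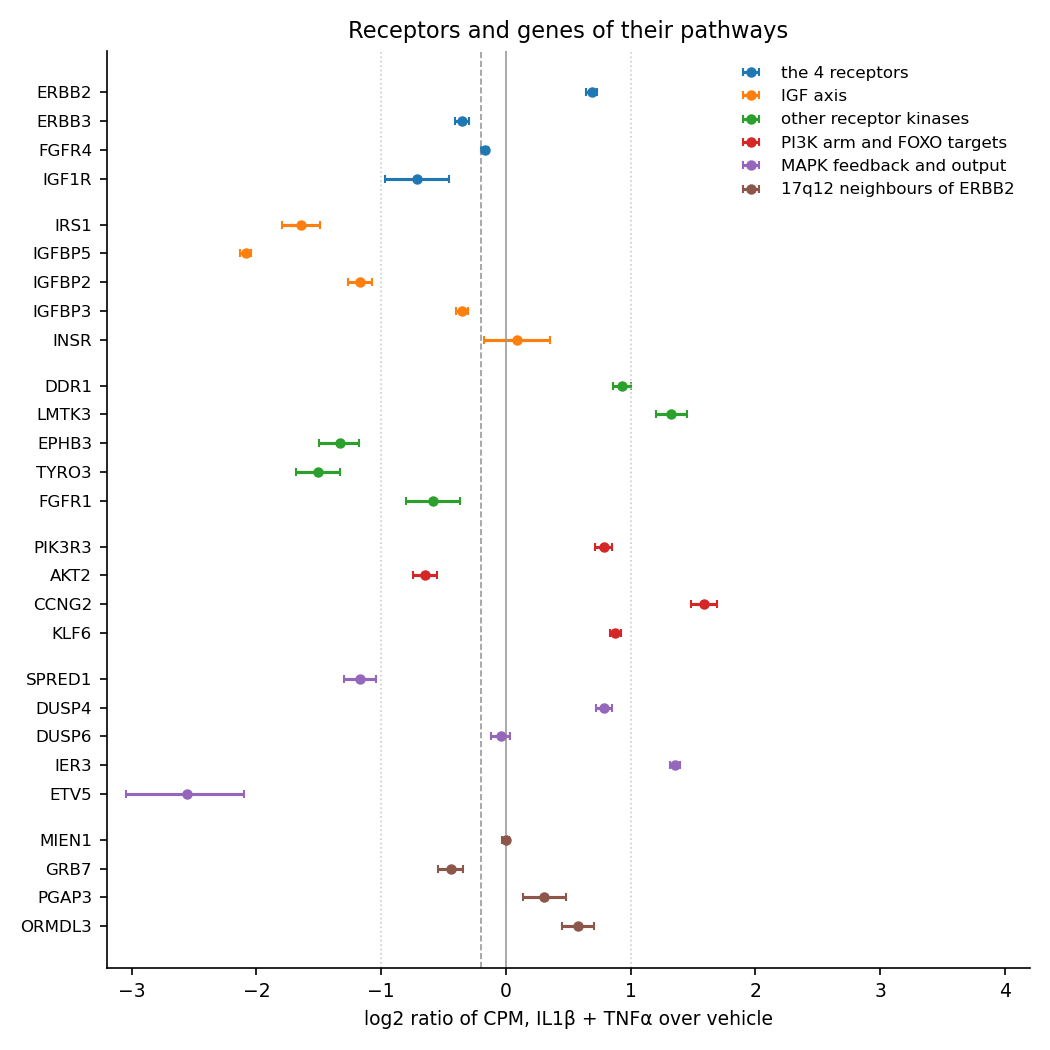
Log2 ratio of CPM (cytokine-treated over vehicle) of the 4 receptors and of chosen genes of their pathways, with exact 95% intervals, the solid line at 0, the dashed line at the median of measured genes (-0.20) and dotted lines at 2-fold. IRS1 (-1.64), IGFBP5 (-2.09) and IGFBP2 (-1.17) lie left of the 2-fold line, while the 4 receptors lie between the 2-fold lines.

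Genes beside ERBB2 on chromosome 17, which are raised with it in tumors that amplify the locus, had lower ratios. None of the 10 measured genes of that list, ERBB2 included, was past 2-fold and their median was -0.19, near the -0.20 of all measured genes. MIEN1 was at 306 CPM in both libraries (log2 ratio 0.00, -0.03 to 0.03), GRB7 at 20.8 and 28.2 CPM (-0.44) and STARD3 at 57.3 and 59.9 CPM in treated and vehicle cells. ORMDL3 was at 19.1 and 12.8 CPM (log2 ratio 0.58) and PGAP3 at 9.77 and 7.89 CPM (0.31). The log2 ratio of ERBB2 was above that of each of the other 9.

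Among luminal transcription factors none of 16 passed 2-fold in either direction. TFAP2B, an AP-2 factor of the family that activates ERBB2 transcription in breast cancer cells, was at 511 CPM in treated and 306 CPM in vehicle cells (log2 ratio 0.74), whereas TFAP2A was at 109.9 and 141 CPM and TFAP2C at 10.3 and 11.5 CPM. GATA3 was at 332 and 585 CPM, FOXA1 at 146 and 157 CPM and XBP1, a factor of luminal cells and of the unfolded protein response, at 1225 and 808 CPM. The TFAP2B ratio was 0.63 in G1 and 0.66 in S cells but 0.12 (-0.05 to 0.29) in G2/M cells. EHF, an ETS factor of epithelia, had the highest ratio of the list (0.90; 42.0 and 22.5 CPM). The list held 6 positive and 10 negative ratios, near the split of all measured genes (3086 positive and 6106 negative).

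By cell cycle phase, as deposited by the authors, ERBB2 was highest in G1 cells of both libraries. It was at 214 CPM in treated and 153 CPM in vehicle G1 cells, at 166 and 120 CPM in S cells and at 138 and 110 CPM in G2/M cells. The log2 ratio of G2/M over G1 cells was -0.63 (-0.91 to -0.37) in treated and -0.48 (-0.57 to -0.38) in vehicle cells. The ratio between libraries was smaller within phases than over all cells (0.69), at 0.49 in G1, 0.47 in S and 0.33 in G2/M cells (0.04 to 0.61; 40 treated cells). With each phase weighted as in the vehicle library, an alternative added after seeing the data, the ERBB2 log2 ratio was 0.45. ERBB2 was thus higher in treated cells in each phase, by less than 1.5-fold.

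ERBB3 differed less between phases. It was at 67.5 and 90.5 CPM in G1, 63.5 and 82.9 CPM in S and 76.1 and 83.8 CPM in G2/M cells of the treated and vehicle libraries, and the interval of the G2/M ratio included 0. FGFR4 in vehicle cells was even across phases, at 390.3 CPM in G1, 399.7 in S and 391 in G2/M cells. In treated cells it was at 353 CPM in G1, 342 in S and 263 CPM (229.6 to 301; 218 UMIs) in the 40 G2/M cells, and there the log2 ratio to vehicle was -0.57 (-0.77 to -0.37). IGF1R was lower in treated G1 cells (2.96 against 5.19 CPM, log2 ratio -0.81), but in S cells it was at 4.85 and 5.23 CPM and no difference was detectable (-0.69 to 0.43). At the vehicle phase mix its log2 ratio was -0.32.

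**Figure D3:**
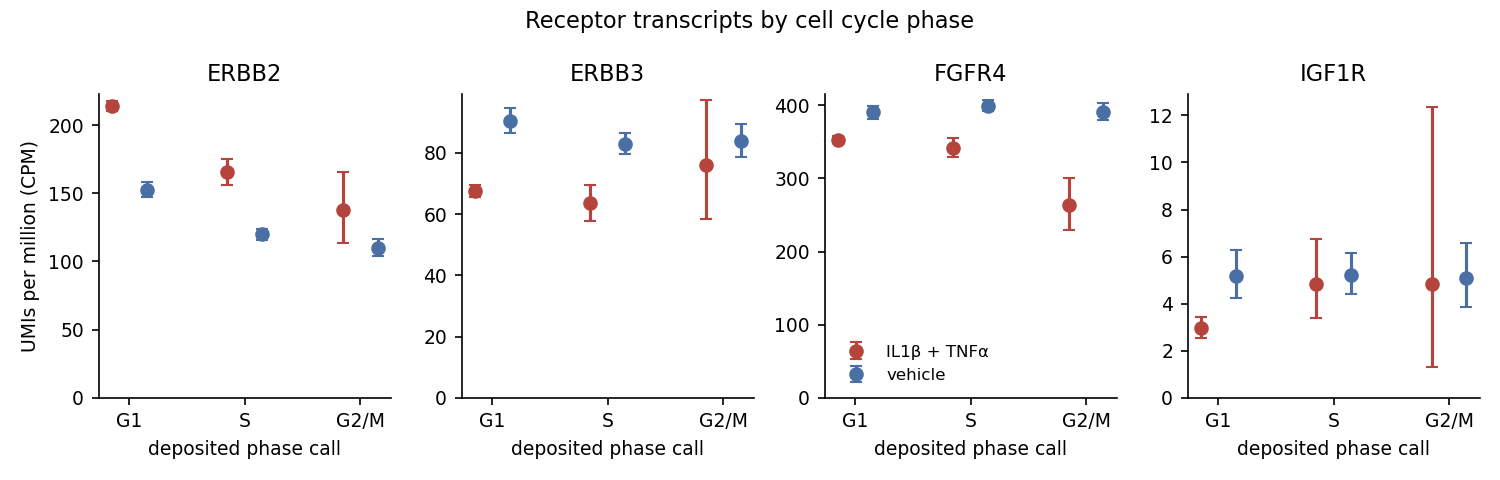
CPM of each receptor in cells called G1, S and G2/M, cytokine-treated (red, left) and vehicle (blue), with exact 95% Poisson intervals. ERBB2 falls across the phases in both libraries, while vehicle FGFR4 stays between 390.3 and 399.7 CPM.

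Each of the 6 deposited clusters held cells of both libraries, and ERBB2 was higher in treated cells in all 6. How the clusters were made is not given in the sources used here, and they come from the same cells, so these values are descriptions. The ERBB2 log2 ratio lay between 0.37 (cluster 5) and 0.76 (cluster 4), and all 6 intervals were above 0. The ERBB3 ratio was between -0.30 and -0.42 in clusters 1 to 5 and -0.02 (-0.18 to 0.14) in cluster 0. FGFR4 had a ratio of -0.60 in cluster 5 (280.4 and 426 CPM) and -0.39 in cluster 1 (289 and 379 CPM), but -0.01 in cluster 3 (360.2 and 362 CPM). The scaling alternatives add 0.18 to 0.19 to each ratio, which turns FGFR4 positive in clusters 0, 2 and 3 and leaves it negative in clusters 1, 4 and 5. IGF1R ratios ran from -0.90 (cluster 3) to -0.14 (cluster 5), on 9 to 78 UMIs per cluster in treated cells, and 3 of its 6 intervals included 0. Within a library the highest cluster exceeded the lowest by 1.61-fold (treated) and 1.49-fold (vehicle) for ERBB2 and by 1.40-fold and 1.26-fold for FGFR4.

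**Figure D4:**
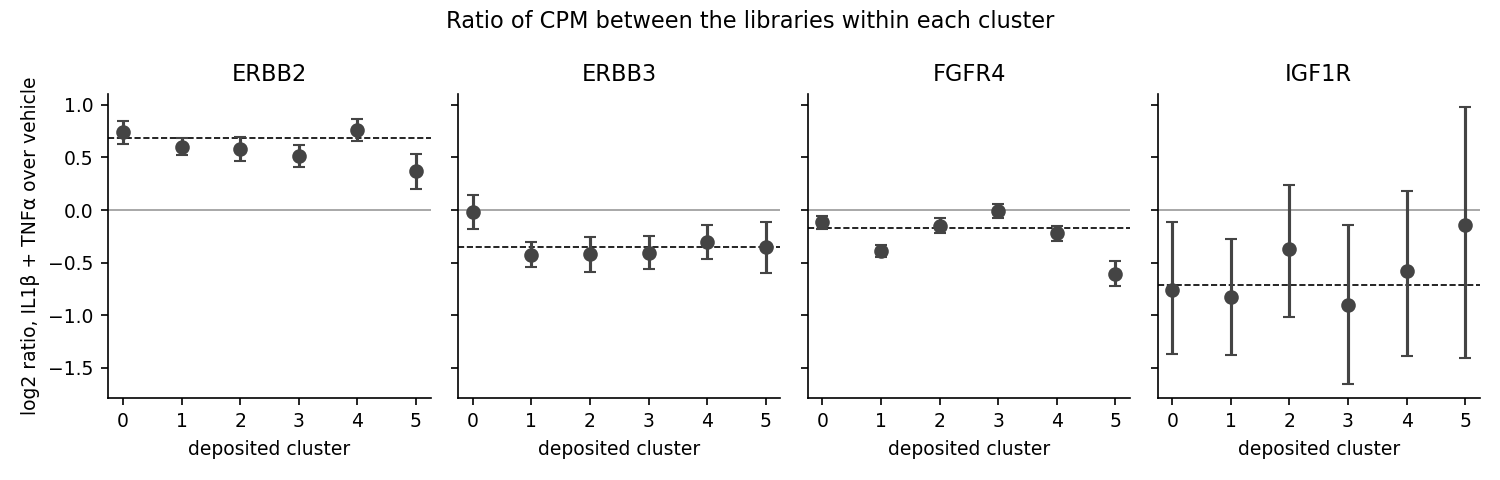
Log2 ratio of CPM, cytokine-treated over vehicle, of each receptor within the 6 deposited clusters, with exact 95% intervals and a dashed line at the ratio over all cells. All 6 ERBB2 points lie above 0, from 0.37 to 0.76, and the FGFR4 points run from -0.60 to -0.01.

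To count cells at equal depth, every cell was thinned to 15000 UMIs, which kept 3033 treated and 2586 vehicle cells and left out 130 and 236. An ERBB2 UMI was then present in 93.01% of treated cells (Clopper-Pearson interval 92.0 to 93.9) and 82.0% of vehicle cells (80.5 to 83.5), and ERBB3 in 61.6% and 71.5%. FGFR4 was present in 95.9% of treated and 98.2% of vehicle cells, and IGF1R in 4.95% and 6.81%. Without thinning the shares in treated and vehicle cells were 97.3% and 90.8% for ERBB2, 74.1% and 81.3% for ERBB3, 97.4% and 98.9% for FGFR4 and 6.67% and 9.74% for IGF1R. The culture holds no cell type that should lack these genes, so a background share from free RNA could not be set beside them, and the IGF1R shares in particular cannot be told from it.

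Per thinned cell the median count was 3 ERBB2 UMIs in treated and 2 in vehicle cells, with maxima of 13 and 10. FGFR4 had medians of 5 and 6 UMIs, with maxima of 23 and 19. The spread between cells, given as variance over mean (near 1 for counting alone), was 1.90 in treated and 1.70 in vehicle cells for FGFR4, 1.34 and 1.20 for ERBB2, 1.11 and 1.06 for ERBB3 and 1.0015 and 1.06 for IGF1R. FGFR4 had the highest value of this measure in both libraries, but the measure grows with the mean, which is also highest for FGFR4, so the receptors are not ranked by it. ERBB2, ERBB3 and FGFR4 were found together in 55.4% of treated and 58.5% of vehicle cells, where the product of their single shares is 54.9% and 57.5%.

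Correlations across cells were weak among the receptors. Pearson r of log-normalized values over 3163 treated and 2822 vehicle cells was 0.13 and 0.12 for ERBB2 with FGFR4 and 0.08 and 0.07 for ERBB2 with ERBB3. All other pairs were between -0.02 and 0.03. Cells of a library share depth and culture, so r is a description without a p. In sparse counts the pairs other than ERBB2 with FGFR4 are too small to be read. ERBB2 with FGFR4 was also small, but after thinning it was still at 0.095 in treated and 0.108 in vehicle cells. By comparison, the gene ranked 8 by r with ERBB2 was at 0.16 in treated and 0.12 in vehicle cells. FGFR4 thus lay below the named partners of ERBB2 in treated cells and close to the last of them in vehicle cells.

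FGFR4 had 1 partner that stood apart in treated cells and led by less in vehicle cells. Of 4382 and 4800 genes at 20 CPM or more in treated and vehicle cells, XBP1 had the highest r with FGFR4 in both libraries, 0.51 and 0.34, and after thinning 0.46 and 0.30. Seen from XBP1, FGFR4 ranked 1 of its partners in treated and 2 in vehicle cells. Within single phases r was between 0.44 and 0.71 in treated and between 0.34 and 0.42 in vehicle cells. The 0.71 rests on 40 treated G2/M cells. Within single clusters r was between 0.39 and 0.60 in treated and between 0.18 and 0.38 in vehicle cells. Of the 8 highest partners of FGFR4, 4 were shared by the libraries, namely XBP1, CLCA2, a membrane protein tied to chloride conductance (0.36 and 0.28 in treated and vehicle cells), GPR160, an orphan receptor (0.33 and 0.21), and DBI, an acyl-CoA binding protein (0.32 and 0.22). The other 4 were SDF2L1, LRRC26, STARD10 and CRABP2 in treated cells and CENPX, C17orf58, FOXA1 and RPS19BP1 in vehicle cells. Lowest in both was TMSB4X, thymosin β4, which binds actin monomers, at -0.35 and -0.28, followed by TRIM29, B2M and ZFP36L1 in treated and S100A10, SCCPDH and S100A11 in vehicle cells. For TDO2, a dioxygenase that breaks down tryptophan, r with FGFR4 was 0.24 in treated and 0.02 in vehicle cells, where TDO2 is rare. This r was not computed within clusters, which differ in TDO2.

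The relation of FGFR4 to XBP1 was graded. Thinned cells were split into 4 bins of similar size by XBP1 UMIs, a split chosen after the correlation was seen. From the lowest to the highest bin the mean FGFR4 count was 3.38, 4.99, 5.64 and 6.85 UMIs per cell in the treated library and 4.57, 5.80, 6.28 and 7.08 in the vehicle library, with SDs over cells of 2.63 to 3.37 and 2.75 to 3.34. In the lowest bin 13.2% of treated and 4.28% of vehicle cells had no FGFR4 UMI, against 0.649% and 0.571% in the highest. ERBB2 had a smaller step, from 2.84 to 3.35 UMIs across the treated bins and 1.66 to 2.15 across the vehicle bins, and in vehicle cells its r with XBP1 was 0.15 over all cells but 0.03 in G1 cells alone.

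**Figure D5:**
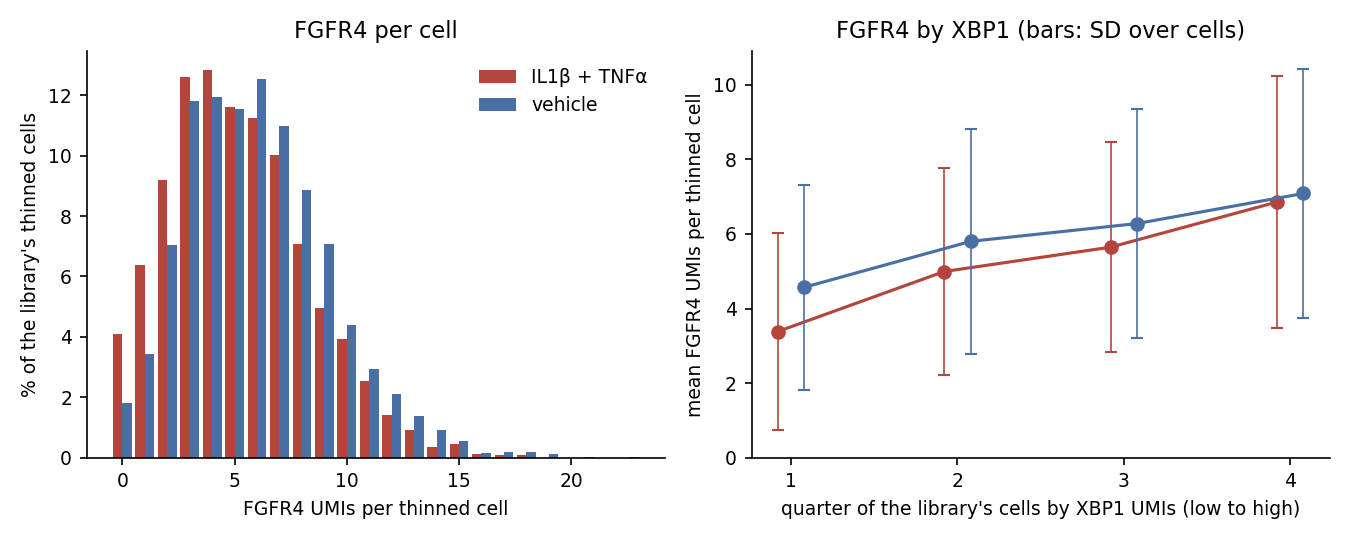
Left, FGFR4 UMIs per cell thinned to 15000 UMIs, as a percentage of the cytokine-treated (red) and vehicle (blue) cells; right, mean FGFR4 UMIs in 4 bins of each library's cells by XBP1 UMIs, with SDs over cells. The means climb from 3.38 to 6.85 in treated and from 4.57 to 7.08 in vehicle cells.

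Some cells had no FGFR4 UMI at equal depth. After thinning to 15000 UMIs, 124 of 3033 treated cells (4.09%, 3.41 to 4.86) and 47 of 2586 vehicle cells (1.82%, 1.34 to 2.41) had no FGFR4 UMI, where a Poisson distribution with the same mean has 0.520% and 0.254%. A count of 0 after thinning is not absence, since 46 of the 124 treated and 24 of the 47 vehicle cells held FGFR4 UMIs before it, and 78 and 23 did not. Cluster 1 held 73 of the 124 treated and 22 of the 47 vehicle cells, and 10.5% of treated and 4.26% of vehicle cells in cluster 1 were at 0. These cells were as deep as the rest, with medians before thinning of 21154.5 against 21735 UMIs in the treated and 21169 against 20703 UMIs in the vehicle library, and G1 calls made up 94.4% against 88.3% and 55.3% against 34.3%.

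The cells at 0 FGFR4 UMIs after thinning held epithelial transcripts. EPCAM averaged 2.33 UMIs in treated cells at 0 and 3.604 in those with an FGFR4 UMI, and 3.19 and 3.38 in vehicle cells. KRT18 averaged 19.7 UMIs in treated cells at 0 and 21.5 in the others, and 15.5 and 10.1 in vehicle cells. XBP1 averaged 8.53 against 18.9 UMIs in treated and 7.26 against 12.3 in vehicle cells, and TMSB4X 88.1 against 38.5 and 52.5 against 25.2. In all, 6 genes had at least 0.5 UMIs per cell at 0 FGFR4 UMIs and at least 4 times the mean of the others in both libraries, by a limit set after seeing the values. They were DKK1, a Wnt inhibitor (0.645 against 0.00997 UMIs in treated, 1.13 against 0.0433 in vehicle cells), the noncoding RNA LINC01133, GPRC5A, S100P, a calcium-binding protein (1.51 against 0.168, and 3.85 against 0.128), MGP and the heat shock protein gene HSPB1 (8.60 against 1.97, and 14.7 against 2.85). ERBB2 in the cells at 0 FGFR4 UMIs was at 2.61 against 3.17 UMIs in treated and 1.55 against 1.94 in vehicle cells, and ERBB3 was at 0.992 against 1.02 and 1.34 against 1.27. TDO2 was at 1.54 against 8.33 UMIs in treated and 0.128 against 0.132 UMIs in vehicle cells. Cluster 1, which held most of the treated cells at 0, also had the lowest treated TDO2, at 260 CPM against 293 to 788 CPM in the other clusters. The part of cluster membership in the TDO2 contrast was not tested.

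ERBB2 had weaker partners. SERF2 (0.19 in both libraries) and HID1, a gene of dense core vesicle formation (0.16 and 0.13 in treated and vehicle cells), were the 2 of its 8 highest that both libraries shared. Others among the 8 were TPT1, MT-ND4, DMBT1, MT-ATP6, MT-CO1 and TMEM132A in treated cells and NEAT1, XBP1, CRACR2B, ZFP36L2 and CTTN in vehicle cells. Among its 4 lowest in both libraries were PTMA (-0.27 and -0.21) and RANBP1 (-0.22 and -0.23), genes of growing and dividing cells, beside HSP90AA1 and RAN in treated and PCLAF and TUBB in vehicle cells. MKI67, the proliferation marker, was at -0.13 and -0.16. In G1 cells alone MKI67 was at -0.06 and -0.07. TFAP2B had an r with ERBB2 of 0.15 and 0.07, and MIEN1, its overlapping neighbour, of -0.03 and -0.02. For ERBB3 the highest r was 0.11 in treated and 0.09 in vehicle cells. Its lowest were CCND1, TUBA1B, KRT8 and GAPDH in treated cells (all -0.11) and PRDX1 (-0.13), PRDX2, NUDC and EIF3I in vehicle cells, and in vehicle G1 cells PRDX1 and PRDX2, which break down peroxides, were both at -0.20. For IGF1R r lay between -0.06 and 0.07 in treated and between -0.08 and 0.07 in vehicle cells, too weak to name a partner.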

How the data were processed

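The authors sequenced 10x Genomics 3′ libraries, counted UMIs per gene and cell on GRCh38 with Cell Ranger 3.1.0 per the submitters' processing notes, and deposited raw counts, not normalized. The study describes removing cells at or above 50000 UMIs, outside 3000 to 5000 genes, or at or above 15% mitochondrial UMIs. They also deposited for each cell the percent of mitochondrial UMIs, a phase call and a cluster number. Cells outside these limits are absent from every value.

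UMIs were summed per library and divided by its total. Ratios have exact conditional binomial intervals, levels Poisson intervals and shares Clopper-Pearson intervals at 95%. No test was made, because cells of 1 culture are not replicates. Cells were thinned without replacement to 15000 UMIs, and r is Pearson's on ln(1 + 10000 × fraction of the cell's UMIs). Depth, 69592446 and 58587996 UMIs in the treated and vehicle libraries, limits low genes such as IGF1R. Only 8 barcodes occurred in both libraries, no doublets were called, and functions were tested on simulated data.

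The 4 genes and the 20 lists were chosen with earlier results of these data known. The planned rule was to name the 4 receptors, list members past 2-fold and the most abundant, the 8 highest and 4 lowest correlated genes, and TDO2. It was not met in full. STUB1, RHEB and ADAM15, abundant in their lists, and luminal markers past 2-fold such as KRT7 and TFF1 are not described. Correlated genes of IGF1R and the highest of ERBB3 are left out as too weak, and other list members, named for their role, and the NF-κB and XBP1 motifs were chosen after values were seen. Genes such as NRG1, IGF1, IGF2 and ESR1 are not analysed here, nor are protein sequences. Alternatives were TMM (edgeR 4.0.16) and median-of-ratios (DESeq2 1.42.0) scaling, other totals, cells, CPM limits, fold limits, depths and rank correlation. Promoters are RefSeq's and gene models GENCODE's. Python 3.11.15, numpy 2.4.6 and R 4.3.3 were used.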

Additional observations from a re-analysis of the deposited data

How the results depend on the processing

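TMM and median-of-ratios scaling added 0.18 and 0.19 to every log2 ratio. ERBB2 was then at 0.86 and 0.88, ERBB3 at -0.17 and -0.16, and FGFR4 turned to 0.0065 and 0.022, with intervals that included 0. Without ribosomal and mitochondrial genes in the totals ERBB2 was at 0.63 and FGFR4 at -0.22, and in G1 cells alone ERBB2 was at 0.49 and ERBB3 at -0.42. At the vehicle phase mix, added after seeing the data, ERBB2 was at 0.45, FGFR4 at -0.25 and IGF1R at -0.32. Over these and 2 further alternatives ERBB2 stayed positive (0.45 to 0.88), ERBB3 negative (-0.42 to -0.16) and IGF1R negative (-0.81 to -0.32), but ERBB2 in G1 cells and at the vehicle mix, and IGF1R under TMM (-0.53), median of ratios (-0.52) and at the vehicle mix, were within 1.5-fold. The 394 genes at least 2-fold higher became 660 at a limit of 1 CPM, 221 at 20 CPM and 828 at 1.5-fold. The 688 lower became 1060, 336 and 1831, and 399 in G1 cells. TMM gave 533 higher and 485 lower, median of ratios 549 and 478, so that the higher share of those past 2-fold was 52.4% and 53.5%, against 36.4% by total UMIs and 50.1% in G1 cells. All 24 alternative shares of cells moved, as they follow depth or the number of UMIs required per cell. Of 36 alternative correlations between receptors 1 moved (ERBB3 with IGF1R in vehicle G1 cells, -0.08). The limit for a move was wider than most of these r, so it could not show whether the weak pairs were stable. FGFR4 kept 5 of its 8 highest vehicle partners in G1 cells, ERBB2 5 of 8 in treated and 4 of 8 in vehicle cells, and IGF1R 2 of 8 and 0 of 8. Depth limits IGF1R and every gene under 5 CPM. No paired analysis was possible because each group is 1 library, and no library could be left out.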
